A study of Saccharomyces cerevisiae with 4 samples.

Results

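The members are 66 budding yeast (Saccharomyces cerevisiae) genes of the transcription machinery, among 5539 named genes printed on both array platforms of the series. They were chosen by gene symbol alone: RPA, RPB, RPC or RPO with a number, TAF with a number apart from TAF14, MED or SRB with a number, and TFA, TFB or TFG with a number. They fall into 7 subunits of RNA polymerase I, 7 of RNA polymerase II, 9 of RNA polymerase III and 7 subunits shared between polymerases. The others are RPO41, 13 subunits of TFIID, 9 of TFIIE, TFIIF and TFIIH, and 13 of Mediator. Each of 4 arrays compared the RNA in a precipitate of zz-tagged Mex67, the mRNA export receptor, with the RNA in a precipitate of the zz tag by itself, a piece of protein A that binds immunoglobulin. All 4 belong to 1 group. Replicate 1 was hybridised on one platform, and replicates 2, 3 and 4 on a second, and replicates 3 and 4 carry the same slide and scan numbers but different dates in their titles, so nothing shows that they share a slide. The sources used here do not state the strain, the promoter of the tagged protein, the growth conditions or whether the cultures were separate. The spread that the p-values below rest on may therefore be technical.

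Eukaryotic nuclei divide transcription between RNA polymerase I, which makes the large ribosomal RNA precursor, polymerase II, which makes messenger RNA, and polymerase III, which makes transfer RNA and 5S ribosomal RNA. Polymerase II starts at promoters with general factors: TFIID carries the TATA-binding protein, TFIIF accompanies the enzyme, TFIIE helps to bring in TFIIH, and TFIIH opens the DNA. Mediator links gene-specific activators to the polymerase. The arrays measured the messenger RNAs that encode these proteins, all of which are themselves transcribed by polymerase II and exported to the cytoplasm, where Mex67 is the main export receptor.

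All values are log2 ratios of the 2 channels minus the array's median over genes, so that 0 is the middle gene of an array and 1 is 2-fold above it. The titles of the samples put the zzMex67 precipitate first, and it is in channel 1 of replicates 1, 3 and 4, so it is the likely numerator and a high ratio probably stands for more RNA there. No file states the numerator, and members are therefore described only as higher or lower in ratio. On replicate 2, where channel 2 holds the zzMex67 precipitate per the labels, the sign was turned. Its title also names the zzMex67 precipitate first, so the turn rests on the channel label alone. Over all genes, turned replicate 2 had a Pearson's r of -0.03 with replicate 1 (442 genes). It had 0.01 with replicate 3 (222 genes) and -0.11 with replicate 4 (337 genes). Values so near 0 do not settle the sign.

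Most members had a value on only 1 or 2 arrays. On replicates 1 to 4, 47, 4, 28 and 34 of the 66 members carried a value (71.2%, 6.06%, 42.4% and 51.5%), against 79.0%, 9.46%, 41.2% and 43.7% of all printed named genes. There were 6 members with no value on any array: RPA12, RPB4, RPC11, RPC53, TAF5 and SRB6. A further 20 had a value on 1 array, 28 on 2, 11 on 3, and RPO41 alone on all 4. The number of arrays limits the precision of every value below.

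Spots of one gene on one array differed by as much as the ratios of interest. On replicate 3, 21 members had values on at least 2 spots, and the median difference between them was 0.85 on the log2 scale, against 0.48 over 1772 genes. The TFIIF subunit gene TFG1 had -0.87 and -6.74 on its 2 spots there, and the TFIID subunit gene TAF10 had 1.14 and 4.62. On replicate 4 the median difference was 0.32 for 21 members, against 0.41 over 1458 genes. Of the polymerase subunit genes, RPA135 had the widest pair on that array, at 1.07 and -0.87.

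**Figure D1:**
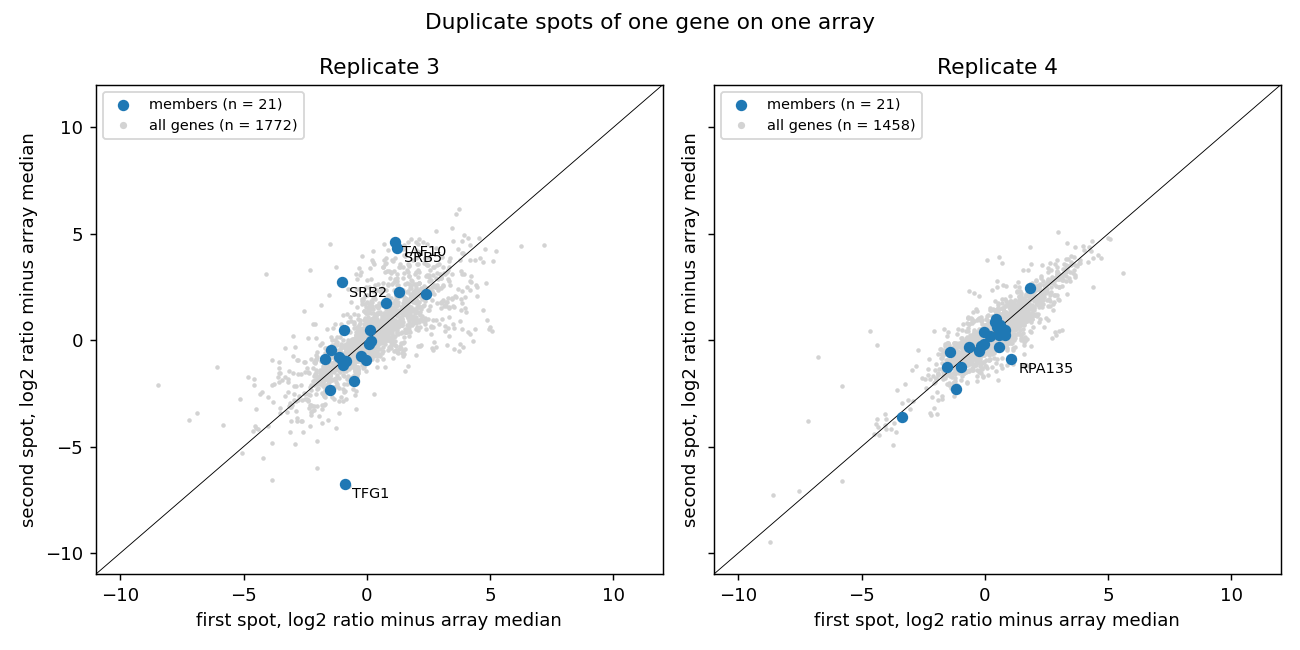
Log2 ratio minus array median of the first measured spot (x axis) and the second (y axis) of each gene on replicates 3 and 4, with members in blue, all genes in grey and the line of equality. TFG1, TAF10, SRB5 and SRB2 lie off the line on replicate 3 and RPA135 on replicate 4, while most members of replicate 4 lie near it.

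The position of a spot also moved with its ratio. When each array was divided into runs of 400 neighbouring spots, in the order of spot numbers, the medians of the runs spanned -1.79 to 1.18 on replicate 1, -2.003 to 2.21 on replicate 3 and -0.72 to 1.71 on replicate 4. On replicate 2 they spanned -3.31 to 1.59, with as few as 1 measured spot in a run. Centring each run on its own median was therefore computed as an alternative. Its values are given for part of the members only, and a member given without one may also have moved.

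As a whole, the members lay near the middle of each well-covered array. On replicate 1 the median of 47 members was 0.19 (SD over members 1.36), on replicate 3 that of 28 was -0.24 (SD 1.62) and on replicate 4 that of 34 was 0.06 (SD 1.11), where all genes have a median of 0 by construction. The 4 members of replicate 2 had a median of 1.27 with the sign turned and -1.27 as deposited. Members above the array median numbered 27 of 47, 4 of 4, 11 of 28 and 18 of 34 on replicates 1 to 4, against 50% of all genes on each.

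At 2-fold or more, 12 members of replicate 1 were higher and 9 lower (25.5% and 19.1%), against 26.0% and 21.1% of all genes. On replicate 3, 6 of 28 were higher and 7 lower, against 28.9% and 21.9%. Replicate 4 differed from these in its split, with 2 members higher and 9 lower (5.88% and 26.5%), against 22.5% and 17.4% of all genes. Of the 9, 5 were among 13 members with a value on 1 of 2 spots, where 26.1% of 961 genes were as low. The other 4 were among 21 members with both spots, against 11.5% of 1441 genes. Centring the runs of replicate 4 left 8 of 34 members past 2-fold in either direction, against 816 of 2421 genes. On replicate 2, 2 of the 4 were higher and 0 lower, against 27.7% and 29.2% of all genes. After runs were centred, 15 of the 21 members past 2-fold on replicate 1 still were, in the same direction, as were 2 of 2, 6 of 13 and 7 of 11 on replicates 2, 3 and 4. Of all genes past 2-fold, 74.2%, 60.7%, 56.7% and 67.4% still were on replicates 1 to 4.

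**Figure D2:**
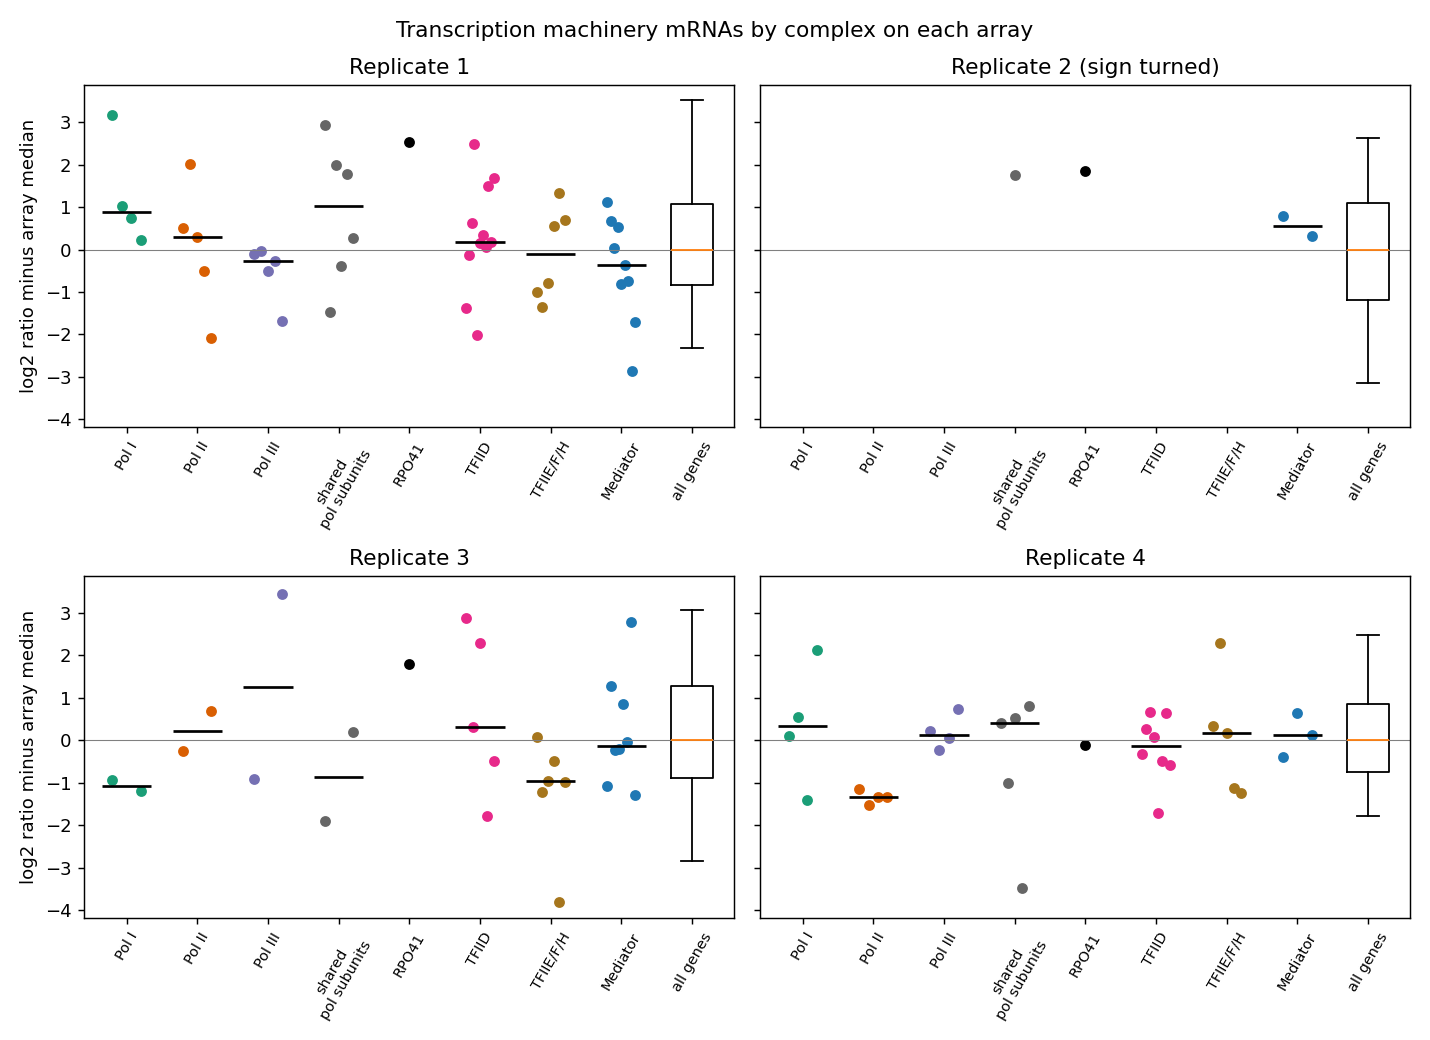
Log2 ratio minus array median (y axis) of every measured member by complex (x axis) on each array, with bars at the median of a complex with 2 or more values. The boxes give all genes, from the lower to the upper quartile with whiskers at the 5th and 95th percentiles. On replicate 4 the 4 polymerase II subunit genes lie between -1.52 and -1.14, and on replicate 1 the 4 polymerase I genes lie above 0.

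The order of the complexes differed from array to array. On replicate 1 their medians ran from 1.02 for the shared subunits (6 genes) and 0.88 for polymerase I (4 genes) through 0.29 for polymerase II (5 genes), 0.19 for TFIID (11 genes), -0.12 for TFIIE, TFIIF and TFIIH (6 genes) and -0.28 for polymerase III (5 genes) to -0.36 for Mediator (9 genes). On replicate 4 the shared subunits had 0.41 (5 genes), polymerase I 0.33 (4 genes), TFIIE, TFIIF and TFIIH 0.17 (5 genes), polymerase III 0.13 (4 genes) and Mediator 0.13 (3 genes), while TFIID had -0.13 (8 genes) and polymerase II -1.33 (4 genes). On replicate 3 TFIID had 0.30 (5 genes), Mediator -0.13 (8 genes) and TFIIE, TFIIF and TFIIH -0.97 (6 genes), while the shared subunits and each polymerase had only 2 measured genes. On replicate 1 the polymerase I members (0.22 to 3.17) and the polymerase III members (-1.68 to -0.03) did not overlap, and on replicate 4 they did (-1.40 to 2.13 and -0.22 to 0.74). With runs centred they overlapped on replicate 1 too (-0.96 to 3.05 and -1.799 to -0.03). RET1, a polymerase III subunit gene that is not a member, had 2.23 on replicate 1, within the range of the polymerase I members. Differences between complexes were not tested.

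All 4 measured polymerase I subunit genes lay above the median on replicate 1, both measured ones lay below it on replicate 3, and on replicate 4 there were 3 above and 1 below. RPA135, which encodes the second largest subunit, had 3.17 (8.97-fold) on replicate 1 and 0.10 on replicate 4. The 0.10 is the mean of the discordant pair of spots given above, so that the gene was high on 1 array only. RPA190, the gene of the largest subunit, had 0.74 on replicate 1, the only array to measure it, and -0.21 with runs centred. RPA14, a stalk subunit gene and the one polymerase I member with 3 values, had 1.03, -0.94 and 0.55 on replicates 1, 3 and 4, a mean of 0.21 ± 1.03 (SD, n = 3). Centring the runs gave it 1.93, -2.26 and 0.34.

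RPA34 and RPA49 encode a heterodimer that resembles TFIIF. On replicate 4 they lay at opposite ends of their complex, RPA34 at -1.40 and RPA49 at 2.13, both from 2 spots of one sign. RPA34 had 0.22 on replicate 1, and -0.96 with runs centred. With runs centred RPA49 had 0.49 and RPA34 -0.90 on replicate 4, so neither remained past 2-fold. RPA43, which encodes the stalk subunit that binds the initiation factor Rrn3, had -1.20 on replicate 3.

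The measured subunit genes particular to polymerase II were all low on replicate 4. On replicate 4 RPO21 (YDL140C, the largest subunit), RPB2 (the second largest), RPB7 (a stalk subunit) and RPB9 (a small subunit at the jaw) had -1.33, -1.14, -1.52 and -1.33, which is 2.51-fold, 2.21-fold, 2.87-fold and 2.51-fold lower than the array median. These are all 4 members of the polymerase II class measured there, where 17.4% of all genes were as low. With the shared subunits counted in, polymerase II had 3 genes above the median and 5 below it on replicate 4, with a median of -1.07. Each of the 4 genes named above had a value on only 1 of its 2 spots. Among all genes of replicate 4 with a value on 1 of 2 spots, the median was -0.46 and 26.1% were 2-fold or more lower (961 genes), against 0.34 and 11.5% of those with both (1441 genes). With runs centred the 4 genes had -1.13, -0.89, -1.46 and -1.02.

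The other arrays did not repeat this. On replicate 1 RPB2 had 2.01 and RPB7 0.29, RPB9 had -0.50 and RPO21 -2.09, and RPB11, which encodes an assembly subunit, had 0.51. On replicate 3 RPB9 had 0.68 and RPB3, the gene of the partner of RPB11, had -0.25. RPB9, with 3 values, had a mean of -0.38 ± 1.01 (SD, n = 3). RPO21 was thus the only polymerase II gene below -1 on each of at least 2 arrays, and with runs centred its replicate 1 value was -0.85.

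The members particular to polymerase III lay within 2-fold of the array medians, with RPO31 on replicate 1 and RPC37 on replicate 3 as exceptions. RPC17 and RPC25 encode the stalk, and had -0.12 and -0.03 on replicate 1, where the spots of RPC25 lay at -0.87 and 0.81. RPC17 had 0.21 on replicate 4, and with runs centred it had -1.29 on replicate 1. RPC34, RPC82 and RPC31 encode an initiation subcomplex and had 1 value each, -0.50 on replicate 1 (-0.78 with runs centred), 0.06 on replicate 4 and -0.91 on replicate 3. RPO31, the gene of the largest subunit, had -1.68 on replicate 1 and 0.74 on replicate 4, on opposite sides.

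RPC37, whose product forms a TFIIF-like heterodimer with that of RPC53, had -0.28, 3.44 and -0.22 on replicates 1, 3 and 4. The value of replicate 3 is 10.8-fold above the median and came from a single spot, in a run whose median was 1.29. It stood alone, since 4 spots on the other arrays lay between -0.30 and -0.15. Without replicate 3, and without centring the runs, no member of this class lay more than 2-fold above the median. RPO31 had -1.799 on replicate 1 and 1.15 on replicate 4 with runs centred. RET1, whose symbol the choice of members does not take, had 2.23 (4.69-fold) on replicate 1, the only array to measure it. With runs centred it had 1.29.

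The subunits shared between polymerases spanned the widest range of any class on replicate 4. RPC10 (YHR143W-A), a zinc-binding subunit of all 3 nuclear polymerases, was above the median wherever it was measured, at 1.98, 1.75 and 0.53 on replicates 1, 2 and 4. As deposited, without the turned sign, its value on replicate 2 is -1.75. RPO26, also common to the 3 enzymes, had 0.27 and 0.82 on replicates 1 and 4, and RPB5 had 0.20 and 0.41 on replicates 3 and 4. The replicate 3 value of RPB5 came from 1 spot and was -2.03 with runs centred.

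RPB8, common to the 3 enzymes, had -1.47 on replicate 1 and -0.996 on replicate 4, just short of 2-fold. RPC19, which polymerases I and III share, had -0.39 on replicate 1 and -3.48 (11.1-fold lower) on replicate 4, with spots at -3.35 and -3.60. Its partner gene RPC40 was measured on replicate 1 only, at 1.77. RPB10, another common subunit gene, had the most discordant arrays of the class, with 2.93 on replicate 1 and -1.91 on replicate 3.

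RPO41 (YFL036W) encodes the polymerase that transcribes mitochondrial DNA, a single-chain enzyme unrelated to the nuclear ones. It had 2.53, 1.86, 1.798 and -0.11 on replicates 1 to 4, so that 3 arrays lay above 3-fold and replicate 4 lay at the median. On replicate 3 both of its spots were high, at 1.31 and 2.28, but they lay in a run whose median was 2.09, and with runs centred the value was -0.31. On replicates 1 and 2 the run-centred values were 2.38 and 2.88. On replicate 2 the gene had 1 measured spot, and its deposited sign is the opposite. The mean over replicates 2, 3 and 4 was 1.18 ± 1.12 (SD, n = 3, limma, adjusted p = 0.998).

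TFIID subunit genes lay on both sides of the median on every array that measured them. On replicate 1, 8 of 11 were above it, from TAF13 at 2.49 down to TAF2 at -2.02. TAF13 encodes a histone-fold subunit and had 0.07 on replicate 4. TAF7 and TAF9 had 1.49 and 1.69 on replicate 1, and TAF9 had -0.59 on replicate 4. TAF1 was measured on replicate 4 only, at -0.33, while TAF3 (0.16) and TAF11 (-0.12) were measured on replicate 1 only.

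TAF12, which encodes a histone-fold subunit of TFIID and of the coactivator SAGA, had the closest TFIID values, 0.62, 0.30 and 0.66 on replicates 1, 3 and 4 (mean 0.53 ± 0.19, SD, n = 3), and all 5 of its spots were above 0. Of the 725 genes measured on these 3 arrays, 12 (1.66%) had an SD as small. TAF12 was picked out by its SD, so this share is not that of a gene chosen beforehand. Its replicate 1 spot stood in a run with a median of -1.79, and with runs centred its values were 2.41, 0.80 and 0.51. TAF10 and TAF4 were high on replicate 3 alone. TAF10, also a SAGA subunit gene, had -1.37, 2.88 and 0.26 on replicates 1, 3 and 4, and TAF4 had 0.34, 2.30 and -0.48. With runs centred, TAF10 had -0.28, 0.77 and 0.51 and TAF4 had -0.29, 0.99 and -0.70, so that neither gene was past 2-fold on any of the 3 arrays. TAF6 went the other way on replicate 3, with 0.05, -1.78 and 0.65. TAF8 had 0.19 on replicate 1 and -0.50 on replicate 3.

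The members that TFIID shares with SAGA (TAF6, TAF9, TAF10 and TAF12 among those measured) had medians of 0.34 (4 genes), 0.30 (3 genes) and 0.45 (4 genes) on replicates 1, 3 and 4, and 3, 2 and 3 of them were above 0. The other TFIID members had 0.19 (7 genes), 0.90 (2 genes) and -0.41 (4 genes). The ranges of the subsets overlapped on each array.

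TAF2 (YCR042C), whose product contacts promoter DNA near the start site, was low on both arrays that measured it, at -2.02 on replicate 1 and -1.72 on replicate 4, or 4.04-fold and 3.30-fold. Its spots on replicate 4 were at -1.18 and -2.27. On replicate 1 its spot lay in the run with the lowest median of the array, -1.79, and with runs centred the gene had -0.23 on replicate 1 and -1.86 on replicate 4.

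Genes of TFIIE, TFIIF and TFIIH had medians of -0.12 (6 genes), -0.97 (6 genes) and 0.17 (5 genes) on replicates 1, 3 and 4, and of -0.42, -0.16 and 0.019 with runs centred. On replicate 3, 5 of the 6 were below the median. TFB4 (YPR056W), a TFIIH core subunit gene, had -0.79, -0.95 and -1.11 on replicates 1, 3 and 4, a mean of -0.95 ± 0.16 (SD, n = 3), and all 5 of its spots lay between -1.27 and -0.77. Of the 725 genes on these 3 arrays, 10 (1.38%) had an SD as small, but TFB4 was likewise picked out by its SD. Its replicate 3 spots lay in a run with a median of -0.92, and with runs centred it had -1.18, -0.05 and -0.87.

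The other TFIIH members had fewer values. TFB2 had 0.08 and 2.30 on replicates 3 and 4, TFB3 had -1.22 and 0.17, and TFB1 had 0.33 on replicate 4. TFB6, whose product releases a helicase from TFIIH, had 0.55 on replicate 1 and -0.48 on replicate 3. Of these, only TFB2 kept one side on both of its arrays.

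Both TFIIF members were higher on replicate 1 and lower on replicate 3. TAF14, a TFIIF subunit gene that is not a member, had -0.83 on replicate 1, the only array to measure it. TFG2 had 0.70, -0.99 and -1.25 on replicates 1, 3 and 4, and TFG1 had 1.33 and -3.81 on replicates 1 and 3; the replicate 3 value of TFG1 rests on the discordant pair of spots given above. With runs centred TFG1 had 0.16 and -2.95 on replicates 1 and 3, and TFG2 had 0.49, -0.09 and -1.003 on replicates 1, 3 and 4. The TFIIE genes TFA1 and TFA2 were measured on replicate 1 only, at -1.001 and -1.34. They were the lowest of their class on that array.

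Mediator genes also spread to both sides. On replicate 1, 4 of 9 were above the median, from MED1 at 1.13 down to SRB7 at -2.87. MED1, a subunit gene of the middle module, had 1.13, 0.80 and -0.39 on replicates 1, 2 and 4, and its replicate 2 value has the turned sign. Centring the runs gave MED1 1.01, 0.37 and 0.26, all above 0. MED4, of the same module, had 1.28 and 0.63 on replicates 3 and 4, above the median on both, and -0.03 and 0.42 with runs centred. SRB7, also of the middle module, had -2.87 on replicate 1 (-1.63 with runs centred) and 0.13 on replicate 4.

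Among the head module genes, SRB5, SRB2 and MED8 had arrays or spots on opposite sides of the median. SRB5 had -0.75 on replicate 1 and 2.79 on replicate 3, where its 2 spots were 1.24 and 4.35. SRB2 had -0.36 and 0.86, with spots of -1.005 and 2.72 on replicate 3. MED8 had -0.80 and -0.22, with spots of -0.91 and 0.47 on replicate 3, and SRB4 had -0.04 on that array. Centring the runs put MED8 on the other side, at 0.30 and 0.28 on replicates 1 and 3. MED6 had 0.04 and 0.33 on replicates 1 and 2 (-0.37 and -0.10 with runs centred), and MED11 had 0.67 on replicate 1. MED7, of the middle module, had 0.52 and -0.23 on replicates 1 and 3, and MED2, of the tail, had -1.08 on replicate 3 (-0.18 with runs centred).

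SRB8 (YCR081W), which encodes a subunit of the kinase module that can dock on Mediator, was low on both arrays that measured it, at -1.70 on replicate 1 and -1.29 on replicate 3, or 3.26-fold and 2.45-fold. Its measured spots on replicate 3 were at -1.72 and -0.87. On replicate 1 its spot lay in the same run as those of RPO21 and SRB7, whose median was -1.24 over 318 measured spots. With runs centred SRB8 had -0.47 on replicate 1 and -1.04 on replicate 3.

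**Figure D3:**
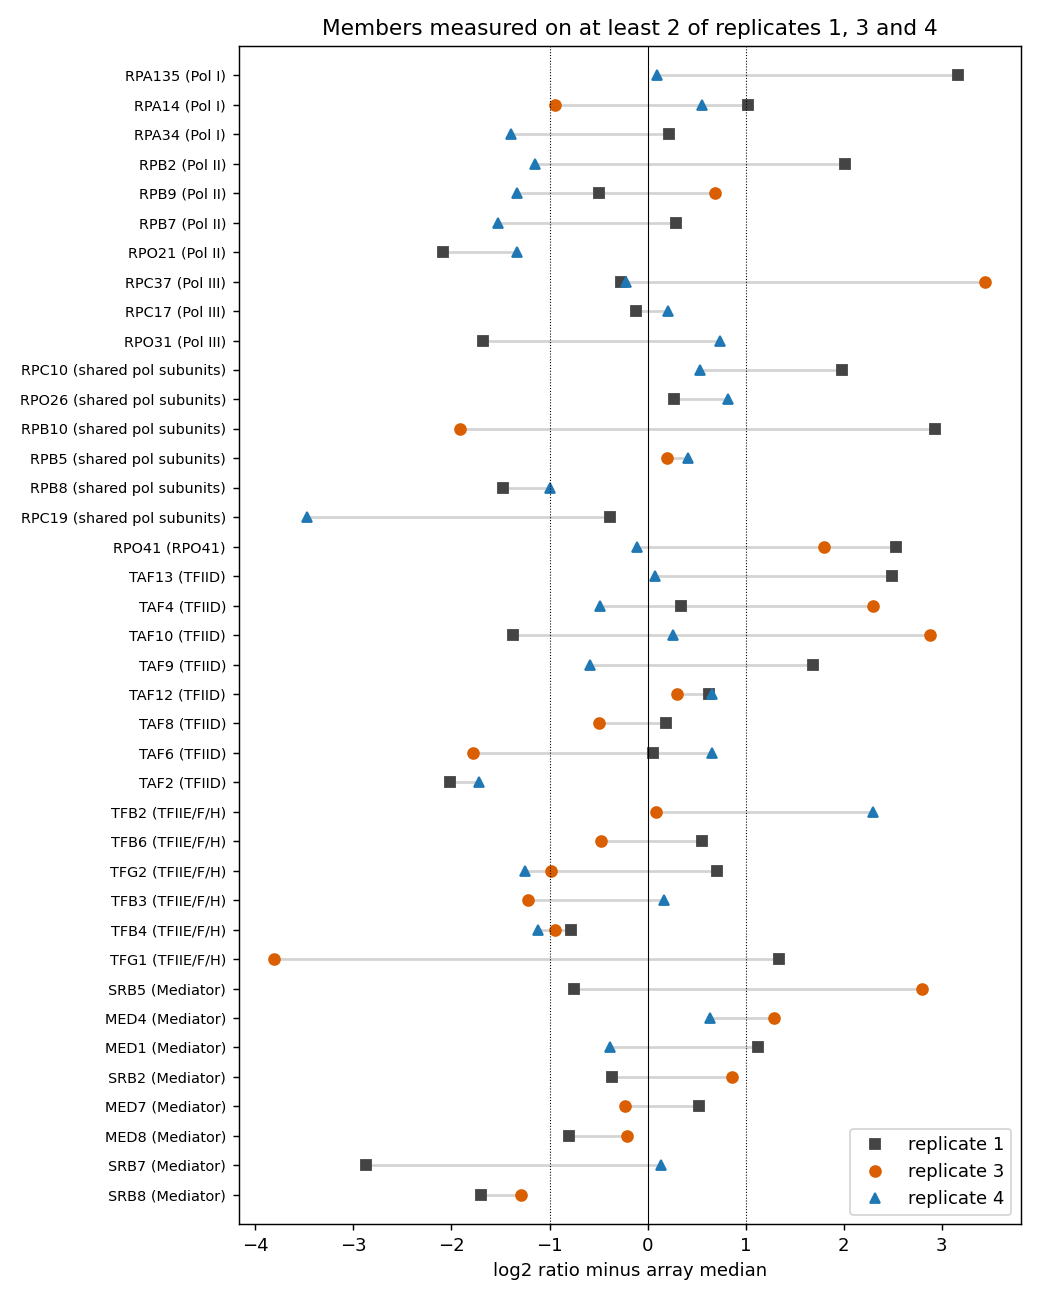
Log2 ratio minus array median (x axis) of the 39 members measured on at least 2 of replicates 1, 3 and 4, grouped by complex, with a square, circle or triangle for each array, a line over their range and dotted lines at 2-fold. RPO21, TAF2 and SRB8 lie left of the lower dotted line on each of their arrays, and no member lies right of the upper one on each of its arrays.

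Replicates 1, 3 and 4 have the zzMex67 precipitate in the same channel, and on these 3 arrays 39 members had at least 2 values. At 2-fold or more on every array that measured them, 0 of these 39 were higher and 3 were lower, RPO21, TAF2 and SRB8, against 6.29% and 3.86% of 3162 genes. A total of 7.69% of the members and 10.2% of all genes met the criterion in either direction. The count joins the platforms by gene and carries no test. Each of the 3 genes had 1 of its 2 values on replicate 1, so that none could be counted without that array, where 0 of 14 members were lower, against 2.28% of 923 genes. Without replicate 3 there were 2 of 26, against 4.08% of 1912 genes, and without replicate 4 there was 1 of 19, against 4.73% of 1777 genes. With runs centred, none of the 3 genes met the criterion, and RPC19 did in their place, at -1.02 and -2.68 on replicates 1 and 4. That is 1 of 39 members lower (2.56%), against 2.75% of 3162 genes, and 0 higher, against 4.46%.

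A common sign of any size was no more frequent among members than among all genes. Of the 39, 8 were above the median and 7 below it on every array that measured them, against 22.8% and 23.2% of 3162 genes. Of 10 members on all 3 arrays, TAF12 was above the median on each and TFB4 below it on each, against 19.2% and 9.24% of 725 genes. The other 8 had mixed signs.

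A member's ratio on one array had no consistent relation to its ratio on another. Between replicates 1 and 3, 6 of 19 members had the same sign, against 51.6% of 1777 genes. Between replicates 1 and 4 there were 14 of 26, against 52.5% of 1912 genes, and between replicates 3 and 4 there were 7 of 14, against 50.5% of 923 genes. Across members, which are not independent replicates and share the arrays and their print layout, Pearson's r was -0.31, 0.20 and -0.06 for these pairs (Spearman's rho -0.33, 0.17 and -0.16). Over all genes Pearson's r was 0.06, 0.08 and -0.02 for the same pairs. The median difference of members between arrays was 1.22, 1.48 and 1.70 on the log2 scale, against 1.51, 1.35 and 1.61 over all genes. The members' differences exceed the median difference between duplicate spots of members on replicates 3 and 4.

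**Figure D4:**
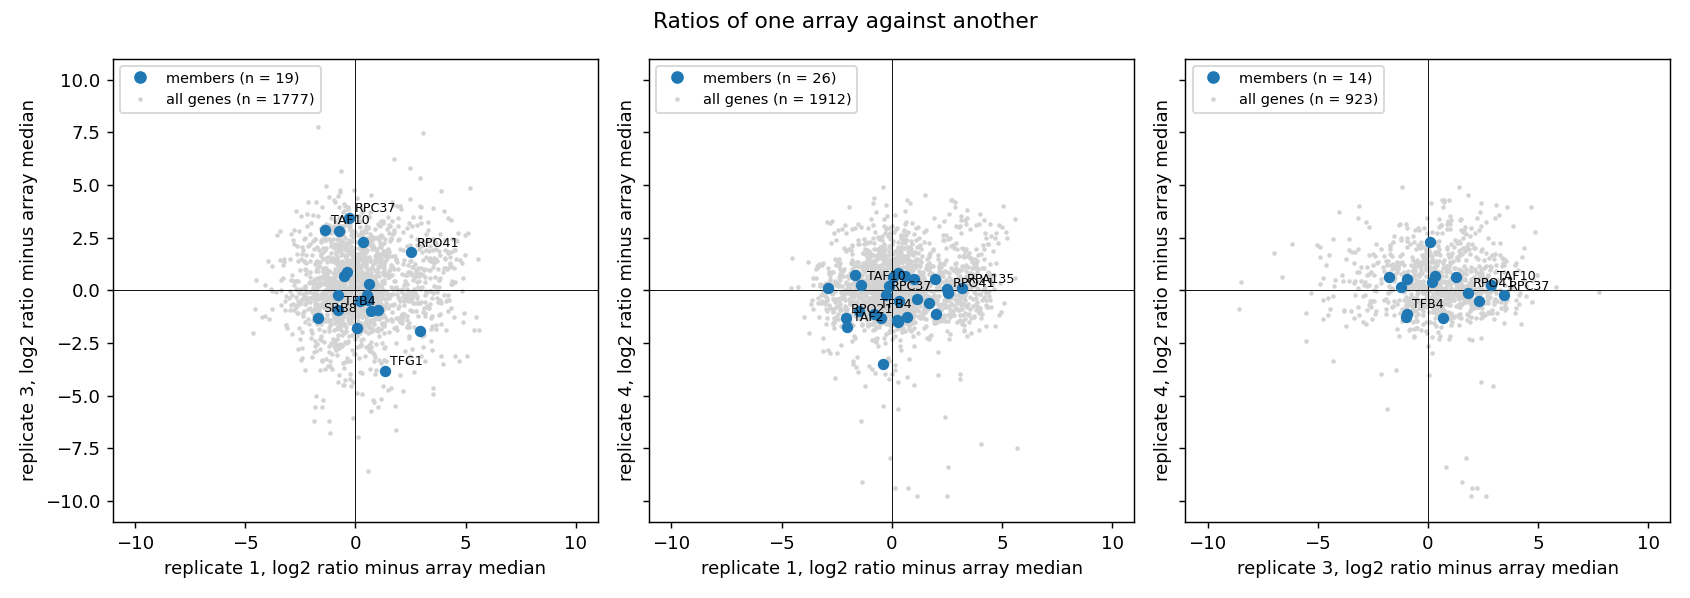
Log2 ratio minus array median on one array (x axis) against another (y axis) for replicates 1 and 3, 1 and 4, and 3 and 4, with members in blue and all genes in grey. The members lie in all 4 quadrants, and RPO21, TAF2 and SRB8 lie in the lower left one.

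No member passed the test. Limma's fit on the second platform, replicates 2, 3 and 4, took genes with a value on at least 2 of the 3 arrays and left out the missing array of a gene. It tested 1212 genes and called 0 of them (0.0%) at an adjusted p of 0.05, and 0 of 16 members. At an unadjusted p under 0.05 there were 57 of all genes (4.7%) and 0 members. The members with the largest means were RPC37 at 1.61 ± 2.59 and TAF10 at 1.57 ± 1.86 (SD, n = 2, limma, adjusted p = 0.998 for each), both carried by replicate 3. The lowest were TFG2 at -1.12 ± 0.19 and TFB4 at -1.03 ± 0.12 (SD, n = 2, limma, adjusted p = 0.998 for each). Their SDs were small, but limma pooled the spread over all genes, which gave every gene with 2 values a standard error of 1.27. The 16 members had a median of 0.39, with 10 means above 0, against a median of 0.28 and 59.0% above 0 for all genes tested.

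Other genes of the transcription apparatus lay on both sides of the array medians. A list of 59 such genes held RET1, TFIIA, TFIIB, TFIIIB and TFIIIC, SAGA, elongation factors, polymerase I factors and Mediator subunits under other symbols, among others. It had medians of 0.18 (38 genes), 0.06 (31 genes) and 0.31 (19 genes) on replicates 1, 3 and 4. On replicate 2, with the sign turned, the median was -1.14 and 1 of 6 genes was above 0. Limma called 0 of the 16 tested, with 3 at an unadjusted p under 0.05, against 4.7% of all 1212 genes tested. Centring the runs left 1 of the 16, against 3.71% of all genes. Among those with 3 or more values, PGD1, a Mediator tail gene, was above the median throughout, at 1.89, 1.35 and 0.53 on replicates 1, 3 and 4, and at 1.84, 1.27 and 0.60 with runs centred. SPT6, an elongation factor gene, was also above it, at 0.86, 1.21 and 0.58 on replicates 1, 2 and 3, where the replicate 2 value has the turned sign and is -1.21 as deposited.

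The rest of the named genes of that list changed side. RAD3, a TFIIH helicase gene, had 3.01, -1.801 and 1.83 on replicates 1, 2 and 3. Its only value below the median has the turned sign and is 1.801 as deposited, and with runs centred its replicate 3 value was -0.28. TFC3, a TFIIIC subunit gene, had -2.47, -1.07, 3.52 and 1.38 on replicates 1 to 4. RRN11, a polymerase I factor gene, had 0.17, -1.93 and -1.14 on replicates 1, 3 and 4, and GAL11, a Mediator tail gene, had 1.58, -1.20 and -0.17 on replicates 1, 2 and 3.

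RPO21, SRB8 and TAF2 span 5202, 4284 and 4224 bp in the RefSeq annotation (assembly R64). Over all measured members, the rank correlation of gene length with the ratio was -0.04 (47 genes), -0.24 (28 genes) and 0.01 (34 genes) on replicates 1, 3 and 4. Over all genes with a length it was -0.13, -0.03 and -0.01.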

How the data were processed

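The deposited tables give 1 value a spot, the authors' log10 ratio of the 2 channels. No label names the scale. Base 10 was chosen because raising it to the deposited values gave simple fractions (denominators up to 50) for as much as 15.5% of an array's spots, against 0.152% with base 2. Those shares are of replicate 3. On replicate 1 they were 0.259% and 0%, so the check says little about that array. How the authors set the numerator, dyes, background and normalization, and why spots are empty, is not given in the sources used here. Values were converted to log2, spots of a gene averaged, each array centred on the median of its genes, and replicate 2 turned. Replicates are numbered in accession order, which pairs nothing. Symbols came from the platform annotation and were checked by gene identifier against RefSeq R64, with 0 updates. No genome build is named, so no coordinates are given, and no probe sequences were used here. The test was limma 3.58.1 (R 4.3.3) with lmFit, eBayes, an intercept and Benjamini-Hochberg adjustment, tested on simulated data. That check required changed genes to be found only for a large shift with noise far below the real spread. It does not show how many real changes the test could find here. Other values were computed with pandas 2.3.3.

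The members, lists, tests and alternatives were chosen with earlier results of these data known. The named genes were members with values on at least 3 arrays, members past the test, members at 2-fold with one sign, the highest and lowest of each class on replicate 1, and from the list of other genes the 6 with the largest mean size over replicates 1, 3 and 4 among those with 3 or more values. Other members are named to account for every member. RET1 and TAF14, from the list of other genes, are named because they encode a polymerase III subunit and a TFIIF subunit. Alternatives were the sign of replicate 2, centring by runs of 400 spots, no centring, scaling, quantile normalization, other ways to combine spots, other sets of arrays or genes, a 1.5-fold threshold, lists with or without shared subunits, and leaving out each array.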

Additional observations from a re-analysis of the deposited data

How the results depend on the processing

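The test called 0 members under each of its 13 alternatives, among them quantile normalization, replicates 1, 3 and 4 joined (10 members), all 4 arrays (12 members) and leaving out each of replicates 2, 3 and 4, which left 14, 3 and 1 members (0 called each time). With replicate 2 as deposited, its median over members was -1.27 and its Mediator median -0.56, and the means of MED1, RPC10 and RPO41 turned to -0.59, -0.61 and -0.056. Without the shared subunits and RPO41 its median over members was 0.56. With shared subunits counted in each polymerase, the polymerase III median of replicate 3 was -0.35. With runs centred, the TFIID medians were -0.23 and 0.77 on replicates 1 and 3, the Mediator median of replicate 2 was 0.14, and the mean of RPB5 turned to -1.09. Then 1 of 39 members was lower at 2-fold with one sign, against 2.75% of 3162 genes. At 1.5-fold 1 member was higher and 5 lower, against 10.3% and 10.1% of 3162 genes. On replicates 3 and 4 alone, and with values on all 3 of replicates 1, 3 and 4, 0 were lower, against 2.28% of 923 genes and 0.552% of 725. Leaving out replicate 1, 3 or 4 gave 0 of 14, 0 of 26 and 1 of 19 members higher, against 10.4%, 7.43% and 10.2% of all genes. It gave 0, 2 and 1 lower, against 2.28%, 4.08% and 4.73%. Joining replicate 1 turned the mean of RPA14 to 0.21, both on replicates 1, 3 and 4 and on all 4 arrays. No centring turned RPA14, RPB9, TAF6 and TFB3 to 0.41, 0.28, 0.041 and 0.078. The causes were not tested. No paired analysis was possible because all arrays belong to 1 group.

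The arrays are few and differ in platform, and without intensities signal over background could not be used to set dim spots aside. Members with a value on 1 array have no replicate check.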

Other observations

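The kinase module of Mediator has 4 subunits, of which only SRB8 has a symbol that the choice of members takes. The other 3, SSN2, SSN3 and SSN8, were looked at after the values of SRB8 were seen. SSN2, which encodes the other large subunit of the module, had -2.52 on replicate 1 and -2.29 on replicate 3, and with runs centred -1.43 and -1.88, so that it stayed past 2-fold on both. SSN3, the gene of the kinase, had -1.56, 1.72 and -0.23 on replicates 1, 3 and 4, and SSN8, the gene of its cyclin, had -0.84 on replicate 1. All 4 genes were below the median on replicate 1, and the 3 measured on replicate 3 were on both sides. With runs centred SSN3 had -0.39 on replicate 3, so that there it changed side. The module was not tested as a group.

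The SAGA gene SPT8 had 2.38 and 3.73 on replicates 3 and 4, and 1.38 and 4.18 with runs centred (limma, mean 3.06 ± 0.96, SD, n = 2, adjusted p = 0.791). TOA1, a TFIIA subunit gene, had -8.49 on replicate 3 and 0.40 on replicate 4, which made it the list's smallest unadjusted p in limma (0.00148, adjusted p = 0.398) although the arrays disagreed in sign. Both genes were chosen after their values were seen.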
